A study of Mus musculus with 2 samples.

Results

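The SMAD family and the Ski corepressors were followed here as transcripts in naive and primed mouse pluripotent cells. The 10 genes are Smad1 to Smad7, Ski, Skil and Foxh1, taken by gene symbol from the deposited table of 18032 genes. All 10 were present, and all passed the abundance limit of 1 CPM (counts scaled to library size) in at least 1 library. Smad9, the SMAD gene outside this set, is given beside them for comparison. The study sequenced polyadenylated RNA from 2 wild-type cell populations, with 1 library each. The mESC library came from ES-E14TG2a embryonic stem cells kept in the ground state in 2iLIF, which is N2B27 with 1 µM PD0325901 (it blocks signalling to ERK), 3 µM CHIR99021 (a GSK3 inhibitor) and 100 units/ml of LIF. The cEpiSC library came from cells of 2iLIF cultures that were plated on fibronectin, left in 2iLIF for 24 h and then held for 2 days in N2B27 that contained activin A (20 ng/ml) and FGF2 (12 ng/ml). Activin A is itself a ligand of the pathway described here, so a response to the medium and a change of cell state cannot be told apart. As each state has 1 library, differences could not be set against replicate spread and no test was run.

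SMAD proteins carry signals of the TGF-beta superfamily from the cell surface to the nucleus. Activated receptors phosphorylate the receptor-regulated SMADs, which join the common partner Smad4 and enter the nucleus. Smad2 and Smad3 serve activin, Nodal and TGF-beta, while Smad1, Smad5 and Smad9 serve BMPs. Smad6 and Smad7 are inhibitory SMADs, Ski and Skil (also called SnoN) are corepressors that bind SMAD complexes on DNA, and Foxh1 is a forkhead factor that brings Smad2 complexes to Nodal target genes. In mouse pluripotent cells, activin and Nodal signalling is known for its part in the primed state and BMP signalling for its part in the naive state.

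The libraries held 1.98e+07 (mESC) and 2.00e+07 (cEpiSC) estimated counts, of which each of the 10 genes took between 88 and 2820. Levels per length are deposited TPM. Ratios are log2 of cEpiSC over mESC on TMM-scaled counts, followed by an exact 95% interval that covers counting error only. Markers went with the labels: none of 3 general pluripotency markers was 2-fold apart, 6 of 8 naive markers were at least 2-fold lower and 6 of 6 formative or primed markers at least 2-fold higher in cEpiSC. Summed TPM of the primitive endoderm markers was 8.95 (mESC) and 8.01 (cEpiSC), of mesendoderm 32.4 and 7.69, of trophoblast 2.59 and 5.16, and of fibroblast 2.04 and 5.72. The neural list summed to 78.4 and 36.9, most of it from Tubb3, a tubulin gene that many cell types express (76.7 and 27.6). Of the 5 neural markers 2 were at least 2-fold higher and 1 lower, so the sum does not speak for the list. The share of other cell types in the results below was not tested. In bulk RNA, fewer cells that express a gene and less of its RNA per cell cannot be told apart.

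Most of the SMAD machinery was present at like levels in both states, and the clearest difference was a rise of the corepressor gene Skil in cEpiSC. Of the 10 genes, Skil and Smad6 (2 genes) rose by 2-fold or more, against 13.6% of 13243 tested genes. None was at least 2-fold lower, against 9.25% of tested genes. The other 8 lay within 2-fold, as did 77.2% of all tested genes, so a share of this size does not set the family apart. The median log2 ratio of the 10 was -0.035, beside -0.018 for all tested genes. Counting intervals lay wholly above no difference for 3 genes (36.6% of tested genes), wholly below it for 4 (39.1%) and across it for 3.

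**Figure D1:**
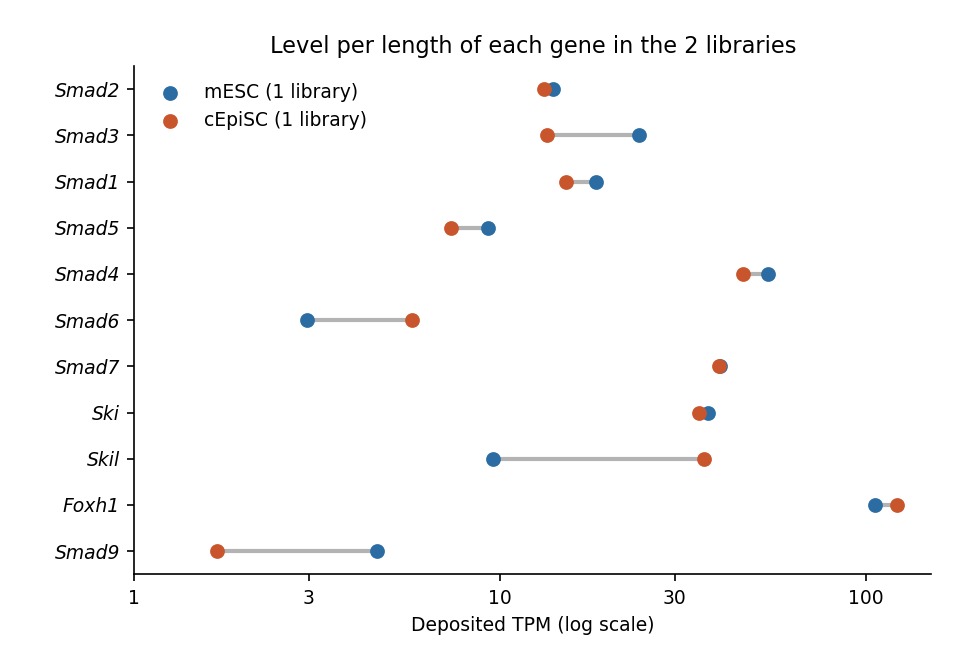
Deposited TPM (log axis) of Smad1 to Smad7, Ski, Skil, Foxh1 and Smad9 in the mESC and cEpiSC libraries, 1 point per library, joined by a grey line. Foxh1 lies highest in both, and Skil moves from 9.56 to 36.0 TPM, beside Ski.

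The SMADs of the activin and Nodal branch shifted from more Smad3 to even amounts of Smad2 and Smad3. Smad2 (Entrez 17126, chromosome 18, 76241090 to 76311748, build GRCm38.p6 here and below) had 13.9 TPM in mESC and 13.2 TPM in cEpiSC, from 1308 and 1344 counts. Its log2 ratio of -0.04 (-0.15 to 0.07) did not leave no difference, and was 0.28 when ratios were centred on genes of like length. Smad3 (Entrez 17127, chromosome 9, 63646766 to 63757994) went from 24.0 to 13.4 TPM, from 1255 and 754 counts. It was 1.76-fold lower in cEpiSC, at a log2 ratio of -0.81 (-0.95 to -0.68), the lowest of the 10 genes and short of the 2-fold call. Smad2 therefore made up 36.8% (35.0 to 38.6) of the TPM of the pair in mESC and 49.5% (47.2 to 51.8) in cEpiSC. Without centring, the ratio of Smad2 to Smad3 counts rose 1.71-fold (1.52 to 1.93), a comparison within libraries that does not depend on their scaling factors. Centring on length put Smad3 at -0.67, so the contrast of the pair does depend on that step. Summed over the pair, the level was 37.9 TPM (counting SD 0.778) and 26.6 TPM (0.606), or 0.701 times as high in cEpiSC.

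The summed level of the BMP branch was lower too, and of its 3 genes Smad9 had the lowest log2 ratio. Smad1 (Entrez 17125, chromosome 8, 79338395 to 79399428) stood at 18.2 and 15.1 TPM in mESC and cEpiSC, at a log2 ratio of -0.22 (-0.40 to -0.05). After centring on length the Smad1 ratio was -0.20. Smad5 (Entrez 17129, chromosome 13, 56703010 to 56742378) stood at 9.23 and 7.31 TPM, at -0.26 (-0.43 to -0.10), which became 0.05 after centring on length. Smad1 made up 66.4% (63.8 to 68.9) of the TPM of the pair in mESC and 67.4% (64.7 to 70.0) in cEpiSC. Without centring, the ratio of Smad1 to Smad5 counts moved 1.03-fold (0.87 to 1.21). Smad9 (Entrez 55994, chromosome 3, 54755455 to 54801662) went from 4.59 to 1.68 TPM, from 263 and 105 counts. It was 2.65-fold lower in cEpiSC, at -1.39 (-1.75 to -1.07), and -0.81 with FPKM, which falls within 2-fold. Relative to Smad1 it fell to 0.441 times its former count ratio (0.338 to 0.573). Smad1, Smad5 and Smad9 together summed to 32.0 TPM (counting SD 0.885) in mESC and 24.1 TPM (0.744) in cEpiSC.

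Smad4, the partner that both branches share, was the most abundant SMAD transcript in each library. Smad4 (Entrez 17128, chromosome 18, 73634790 to 73703791) stood at 54.0 TPM in mESC and 46.1 TPM in cEpiSC, at a log2 ratio of -0.18 (-0.27 to -0.10). Its counts were partly shared with other loci, so the error may be larger than the interval. Smad4 made up 32.4% of the summed TPM of all 8 SMAD genes in each library, while that sum went from 167 to 142 TPM. Of the 7 SMADs among the 10 genes, 6 had a ratio below 0 and Smad6 above (51.2% of tested genes were below 0), but library totals or FPKM put Smad2 and Smad7 above 0 as well, and centring on length put Smad2, Smad5 and Smad7 there.

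**Figure D2:**
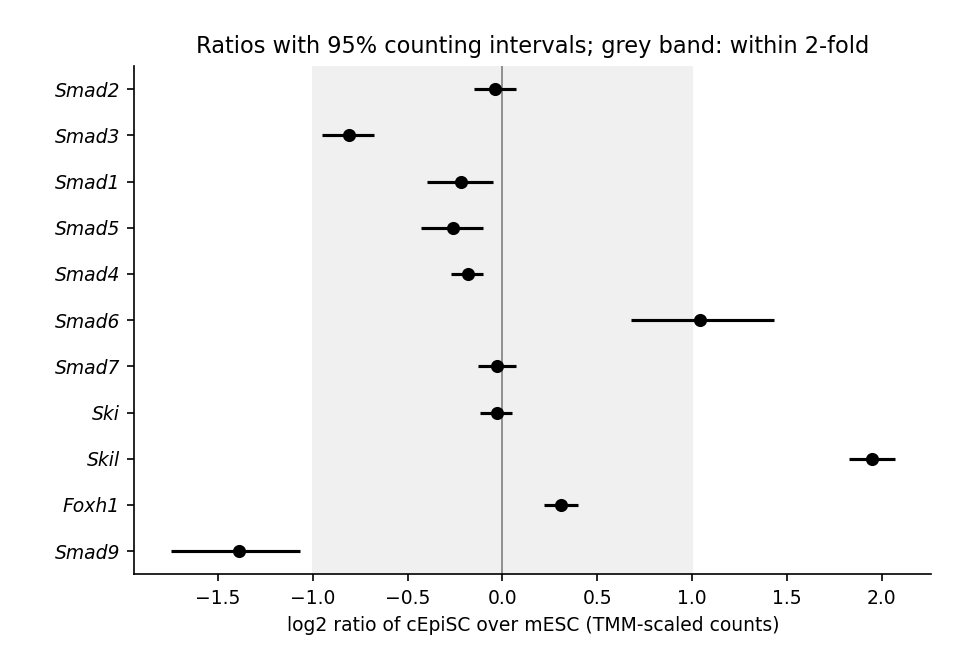
Log2 ratio of cEpiSC over mESC for each gene, with its exact 95% counting interval as a line and the range within 2-fold in grey. Skil lies wholly beyond 2-fold on the higher side at 1.95 and Smad9 on the lower side at -1.39, while the interval of Smad6 crosses the 2-fold line.

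The inhibitory SMADs differed from each other in level, and of them only Smad6 differed between the libraries beyond counting error. Smad7 (Entrez 17131, chromosome 18, 75367365 to 75395935), which blocks receptors of both branches, held 39.8 TPM in mESC and 39.6 TPM in cEpiSC. Its 1709 and 1771 counts gave a log2 ratio of -0.03 (-0.13 to 0.07), and no difference could be detected at this depth. Smad6 (Entrez 17130, chromosome 9, 63953076 to 64022085), which acts mainly on the BMP branch, was the scarcest of the 10 genes in both libraries. It went from 2.96 to 5.73 TPM, from 88 and 193 counts, and was 2.07-fold higher in cEpiSC at 1.04 (0.68 to 1.43). The 2-fold call for Smad6 was lost with TPM (0.77) or FPKM (0.75) and a pseudocount of 1. Smad6 made up 6.92% (5.60 to 8.44) of the TPM of the inhibitory pair in mESC and 12.6% (11.0 to 14.4) in cEpiSC, and the ratio of Smad6 to Smad7 counts rose 2.12-fold (1.62 to 2.78). Since Smad7 dominated, the pair summed to 42.8 TPM (counting SD 1.01) and 45.4 TPM (1.03).

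Skil rose to the level of its paralog Ski. Ski (Entrez 20481, chromosome 4, 155154075 to 155222535), first known as a viral oncogene's cellular form, stood at 36.9 TPM in mESC and 34.8 TPM in cEpiSC. Its 2131 and 2202 counts gave a log2 ratio of -0.03 (-0.12 to 0.05), or 0.11 after centring on length. Skil (Entrez 20482, chromosome 3, 31095058 to 31122923), itself known as an early target of activin and TGF-beta signalling, went from 9.56 to 36.0 TPM, from 691 and 2820 counts. It was 3.86-fold higher in cEpiSC at 1.95 (1.83 to 2.07), and between 1.81 and 2.26 under all 9 other settings tried. Of these settings, the changes of filter cannot move a single ratio. The interval of Skil, alone among the 10 genes, lay wholly above 2-fold, as it did for 9.15% of tested genes. By ratio Skil took place 809 from the top of 13243 tested genes. Its share of the TPM of the pair went from 20.6% (19.2 to 22.0) to 50.8% (49.4 to 52.2), and the ratio of Skil to Ski counts rose 3.95-fold (3.56 to 4.38). The summed level of the corepressors was 46.5 TPM (counting SD 0.878) in mESC and 70.8 TPM (1.00) in cEpiSC, 1.52 times as high. Set against Smad7, another gene known to respond to the same signals, the ratio of Skil counts rose 3.94-fold (3.54 to 4.39).

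**Figure D3:**
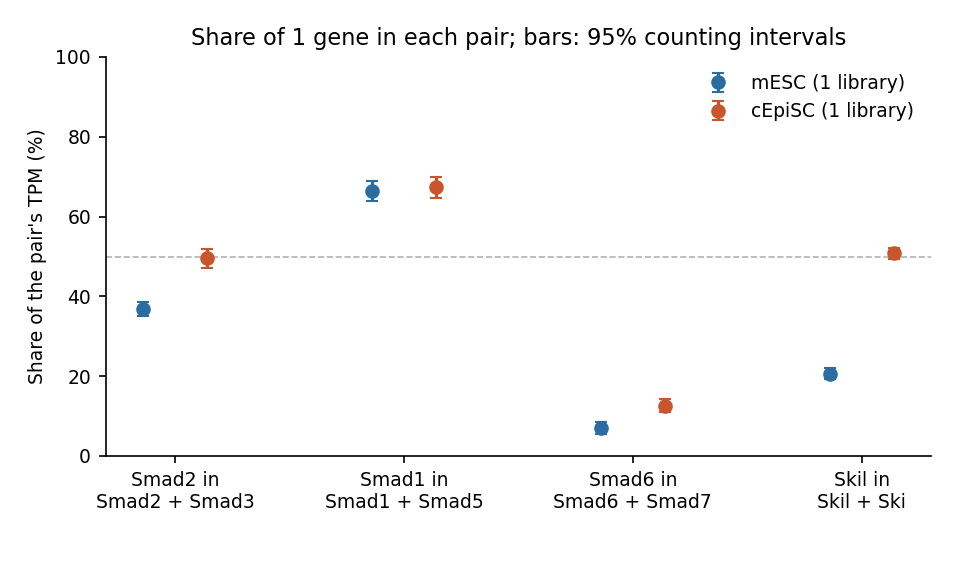
Share of the first-named gene in the TPM of 4 gene pairs, in percent, for mESC and cEpiSC, with 95% counting intervals. Smad2 and Skil reach 49.5% and 50.8% in cEpiSC from lower shares in mESC, whereas Smad1 stays at 66.4% and 67.4%.

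Foxh1 (Entrez 14106, chromosome 15, 76667829 to 76671614) was the most abundant of the 10 genes per length, at 106 TPM in mESC and 121 TPM in cEpiSC. This exceeded 87.4% and 90.1% of tested genes. Its 1891 and 2480 counts gave a log2 ratio of 0.31 (0.22 to 0.40), 1.24-fold higher in cEpiSC, and 0.20 with TPM. Part of its counts was shared with other loci. The RefSeq gene bodies of Foxh1 and Kifc2 overlap over 368 bases. Kifc2 had 3.11 TPM in mESC and 1.25 TPM in cEpiSC, at a log2 ratio of -1.25, and its part in the Foxh1 counts was not tested.

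Ordered by TPM, the genes in mESC ran Foxh1, Smad4, Smad7, Ski, Smad3, Smad1, Smad2, Skil, Smad5, Smad9 and Smad6. Of these neighbours only Skil and Smad5 did not differ beyond counting error (ratio 1.04, 0.929 to 1.15). In cEpiSC the order was Foxh1, Smad4, Smad7, Skil, Ski, Smad1, Smad3, Smad2, Smad5, Smad6 and Smad9. There Skil and Ski (1.03, 0.977 to 1.09) and Smad3 and Smad2 (1.02, 0.932 to 1.12) were not separable, and Smad1 and Smad3 barely were (1.12, 1.00 to 1.26). Skil thus moved from place 8 to place 4 among these genes.

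**Figure D4:**
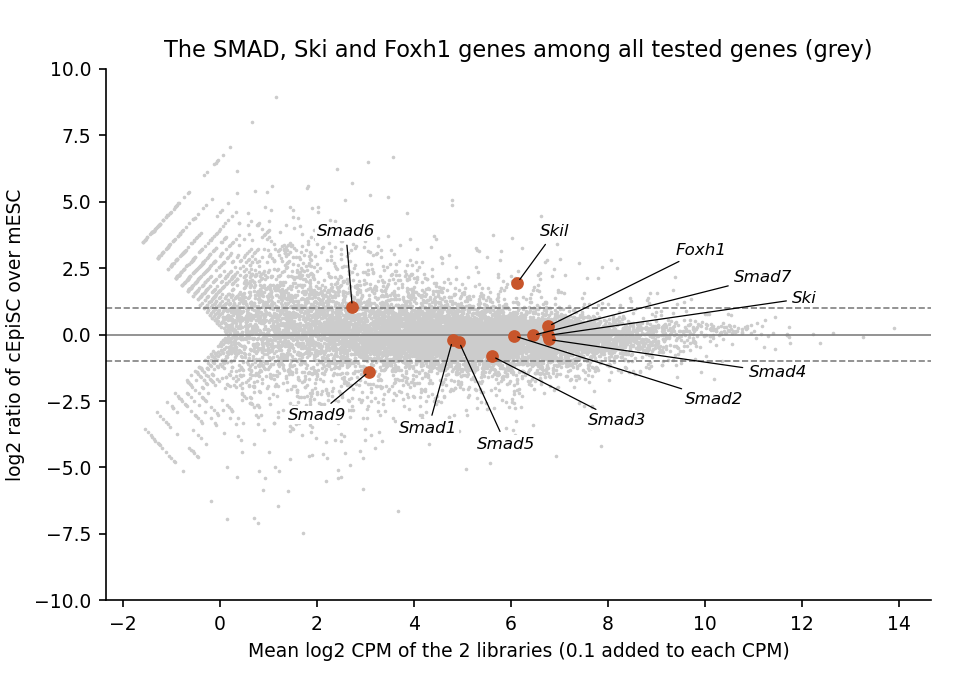
Log2 ratio against mean log2 CPM (0.1 added to each CPM) for all 13243 tested genes in grey, with the SMAD, Ski and Foxh1 genes in orange and dashed lines at 2-fold. Skil lies above the upper line at 1.95 and Smad9 below the lower line at -1.39, and the remaining genes lie within or near the 2-fold lines.

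Smad3 and Smad6 are neighbours on chromosome 9, 195 kb apart, with no other tested gene between them, and they differed in opposite directions. The ratio of Smad6 to Smad3 counts rose 3.65-fold (2.77 to 4.83). On the far side of Smad3, Aagab had a log2 ratio of 0.28 (0.16 to 0.41), and beyond Smad6 lay Lctl at 1.83 (1.11 to 2.93) with only 0.68 and 2.38 TPM. Beside Skil, Prkci at 42.3 kb had a log2 ratio of -0.01 (-0.07 to 0.05) and the scarce Slc7a14 -0.30 (-1.21 to 0.55), so the rise of Skil was not seen in its tested neighbours. RefSeq also places Gm51710, a long noncoding RNA gene with no row in the table, over 6775 bases of the Smad3 gene body.

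Promoters of Smad3 and Smad6 are shown because these neighbours moved apart. Each is the 250 bases before a transcription start in RefSeq (GRCm38.p6), read on the minus strand, at chr9:63757995-63758244 for Smad3 and chr9:64022060-64022309 for Smad6. Capitals mark the SMAD box, the letters GTCT or, on the other strand, AGAC.
Smad3: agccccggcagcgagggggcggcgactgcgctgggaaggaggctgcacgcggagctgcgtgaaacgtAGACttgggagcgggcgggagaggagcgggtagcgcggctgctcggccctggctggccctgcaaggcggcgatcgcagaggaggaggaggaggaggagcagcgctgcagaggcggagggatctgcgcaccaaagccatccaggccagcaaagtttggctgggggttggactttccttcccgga
Smad6: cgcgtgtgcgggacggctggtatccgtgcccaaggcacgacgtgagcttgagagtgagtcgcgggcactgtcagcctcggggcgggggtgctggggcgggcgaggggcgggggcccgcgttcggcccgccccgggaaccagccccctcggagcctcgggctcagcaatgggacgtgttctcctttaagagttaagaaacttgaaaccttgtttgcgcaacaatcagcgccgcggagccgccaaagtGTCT

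Each of these windows held 1 SMAD box, beginning at base -183 from the start in Smad3 and at base -4 in Smad6. The Smad6 window reaches into the RefSeq gene body, which runs to 64022085, and its SMAD box lies inside that body. At least 1 such box occurs in 82.9% of 32851 mouse promoter windows of this length, with a median of 2, so its presence is common. Neither window held the GC-rich SMAD motif GGCGCC (9.59% of windows), the FOXH1 motif TGTGNATT or its reverse complement AATNCACA (3.18%), the CAGA box CAGACA or TGTCTG (17.1%), or the palindrome GTCTAGAC (0.167%). The last 2 contain a SMAD box. All were searched on both strands. Promoter entries were found for 5 of the 10 genes, Skil not among them. Of the 5, Ski held GGCGCC at base -220 and no SMAD box, and Smad1 held neither. Smad5 held a SMAD box before each of its 3 start sites, and GGCGCC at base -19 of 1 of them. The windows of start sites 1 and 2 overlap, and their boxes, at bases -171 and -213, are the same stretch of the genome. GC content was 69.2% in Smad3, 66.8% in Smad6 and 87.6% in Ski, against a median of 52.4% over all windows.

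Around the SMADs, the pathway genes were described in 8 lists, each without the 10 genes above. The median log2 ratio was 0.74 for ligands, 0.68 for known activin or Nodal targets and -1.55 for known BMP targets, beside -0.018 for all tested genes. Without a filter on low counts these 3 medians were 0.46, 0.28 and -1.19. Over all lists 15 of 108 tested genes were higher (13.9%), near the 13.6% of all tested genes, and 22 were lower (20.4%, against 9.25%). No test was run on these lists. Of 11 tested ligand genes 4 were called higher in cEpiSC at 2-fold (36.4%) and none lower, or 5 and 3 without the filter. They were Gdf1 (1 and 106 counts, some shared with other loci), Inhbb, the activin B subunit gene (0.71 to 5.64 TPM, 2.96 [2.50 to 3.61]), Bmp6 (0.13 to 1.43 TPM, 3.02 [2.09 to 5.47]) and Bmp8b (4 and 36 counts, some also shared with other loci). Gdf1, Bmp6 and Bmp8b reached 1 CPM in cEpiSC alone (0.0517, 0.207 and 0.207 CPM in mESC). The filter thus let them in through the library where they were higher, and the one-sided calls are not read as a trend of the ligands. Nodal itself went from 96.0 to 155 TPM (0.74 [0.66 to 0.82]). Among 15 tested receptor genes 2 were higher (13.3%) and 3 lower (20.0%), at a median of -0.36, or -0.04 after centring on length. Lower were Rgma, a BMP co-receptor gene (15.2 to 0.64 TPM, -4.46 [-5.22 to -3.98]), Tgfbr2, the type II receptor gene for TGF-beta (2.30 to 0.79 TPM, -1.46 [-2.04 to -0.98]), and Acvr1b, the main type I receptor gene for activin and Nodal (31.8 to 13.7 TPM, -1.16 [-1.32 to -1.01]). Higher were Acvrl1 (3 and 25 counts) and Tdgf1, the Nodal co-receptor gene Cripto (274 to 691 TPM, 1.38 [1.34 to 1.43]). Acvrl1 too reached 1 CPM in cEpiSC alone. Bmp8b, Nodal, Acvr1b and Tdgf1 were named after their values were seen.

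Among transcripts of the proteins that handle SMADs, 14 of 16 genes for ubiquitin enzymes, 11 of 16 for phosphatases, anchors and transport proteins and 16 of 19 for coregulators lay within 2-fold, beside 77.2% of all tested genes. Of 16 ubiquitin ligases and deubiquitinases, 1 was higher (6.25%) and 1 lower (6.25%). Over all tested genes 13.6% were higher and 9.25% lower. Rnf111, which encodes Arkadia, a ligase that sends Ski, SnoN and Smad7 to degradation, was 2.23-fold lower (36.5 to 15.8 TPM, -1.16 [-1.28 to -1.04]). Usp11, a deubiquitinase gene, was higher (17.9 to 42.9 TPM, 1.32 [1.19 to 1.46]). The SMAD ligase genes Smurf1 and Smurf2, named after their values were seen, had ratios of 0.28 (0.17 to 0.40) and 0.43 (0.32 to 0.54). Among 16 phosphatases, anchors and transport proteins 2 were higher (12.5%) and 3 lower (18.8%). These included Dab2, an endocytic adaptor gene (24.6 to 6.53 TPM, -1.84 [-2.03 to -1.67]), Pdp1 (2.69 to 7.18 TPM, 1.44 [1.15 to 1.77]) and Ctdspl (0.80 to 1.71 TPM, 1.12 [0.58 to 1.76]). Of 19 coregulators 1 was higher (5.26%), the corepressor gene Ctbp2 (101 to 210 TPM, 1.12 [1.05 to 1.18]). Lower were 2 (10.5%), among them the coactivator gene Crebbp (10.4 to 4.46 TPM, -1.13 [-1.29 to -0.98]). After centring on length, none of the coregulators was called lower.

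**Figure D5:**
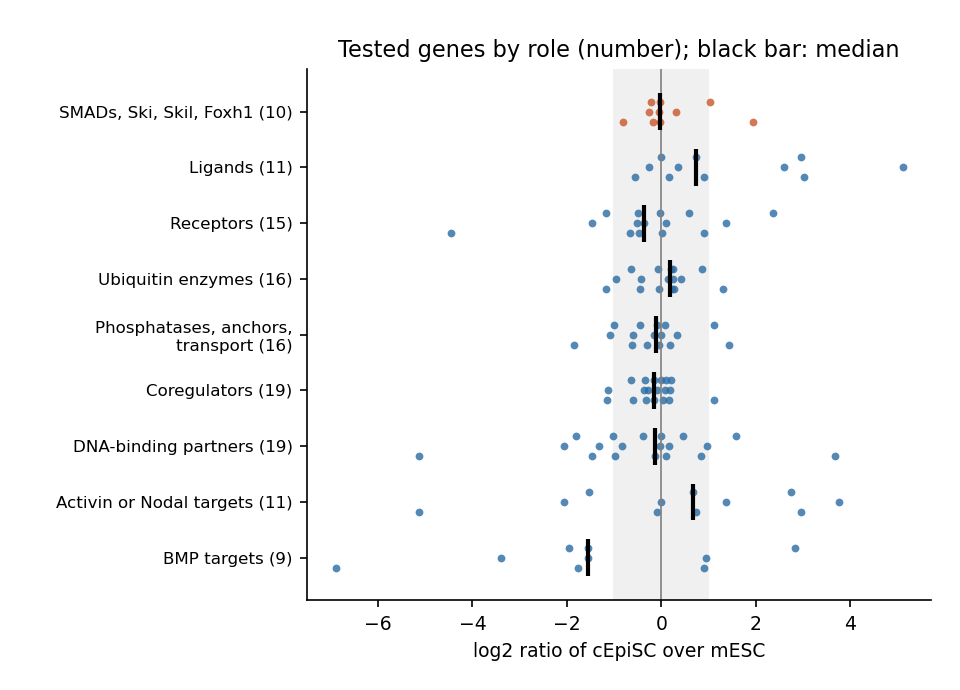
Log2 ratio of cEpiSC over mESC for the tested genes of each role, 1 point per gene (vertical offsets only separate points), with the median as a black bar and the range within 2-fold in grey. The 10 SMAD, Ski and Foxh1 genes centre near 0, and BMP targets have the lowest median, -1.55.

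DNA-binding partners of SMADs gave 2 higher (10.5%) and 6 lower (31.6%) of 19 tested genes, against 13.6% and 9.25% of all tested genes. Their median was -0.13. The largest differences were those of Gsc, a homeobox gene of the primitive streak (22.6 to 0.47 TPM, 264 and 6 counts, -5.13 [-7.00 to -4.40]), Zfp423, whose product binds BMP-activated SMADs (1.00 to 12.4 TPM, 3.69 [3.31 to 4.21]), and Mixl1 (26 and 5 counts, -2.07 [-4.20 to -1.06]). Known activin or Nodal targets had 4 higher (36.4%) and 3 lower (27.3%) of 11 tested, so both directions were seen. Lefty1, a secreted Nodal antagonist gene whose counts were partly shared with other loci, rose most (15.9 to 212 TPM, 3.77 [3.60 to 3.96]). Nodal, Inhbb, Tdgf1, Gsc and Mixl1, named above in other lists, are also in this list. Among tested BMP targets 1 of 9 was higher (11.1%) and 6 lower (66.7%). Gata2 (342 and 1 counts, -6.90 [-13.81 to -6.01]) and Tbx3 (111 to 10.2 TPM, -3.39 [-3.53 to -3.27]) fell most, and Dusp9, a phosphatase gene that acts on ERK, rose (32.9 to 228 TPM, 2.83 [2.74 to 2.94]). Tbx3 is also a marker of the naive state. Id1 and Id3, classical BMP response genes, went from 9.25 to 2.93 TPM (84 and 29 counts, -1.55 [-2.28 to -0.99]) and from 6.36 to 1.68 TPM (59 and 17 counts, -1.76 [-2.75 to -1.08]). Id4 was lower too (7.51 to 1.79 TPM, -1.96 [-2.62 to -1.46]). Higher, but within 2-fold, were Id2 (1.73 to 3.38 TPM, 0.95 [0.26 to 1.82]) and Bambi (2.49 to 4.52 TPM, 0.90 [0.60 to 1.22]). These Id genes and Bambi were named after their values were seen. Of the genes named in this paragraph, Gsc, Mixl1, Gata2 and Id3 reached 1 CPM in mESC alone, the library where they were higher. With a filter at 5 CPM the numbers fell to 2 higher ligands, 1 lower activin or Nodal target and 3 lower BMP targets, as fewer genes were tested.

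By distance over log2(TPM + 1) in the 2 libraries, the pathway genes near to Skil among 128 included Usp11 (distance 0.88) and Foxo4 (0.89). Foxo4, a forkhead factor gene, went from 18.4 to 31.8 TPM. With 2 libraries such likeness rests on 2 levels for each gene.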

How the data were processed

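Polyadenylated RNA of 1 mESC and 1 cEpiSC culture was sequenced with paired reads from dUTP-marked libraries, per the labels' protocols. Tools listed in the submitters' processing notes are RSEM 1.3.1, Bowtie2, HISAT2 and DESeq2 1.34.0, with build GRCm38.p6. What each did, which annotation was used and whether counting used strand is not given in the sources used here. Deposited by the authors were, per the file headers, estimated counts without scaling, TPM per kilobase scaled to the same sum in each library, and FPKM per kilobase scaled to fragment totals. FPKM summed to 543589 (mESC) and 590682 (cEpiSC). The table held 0 columns of other samples. Counts more than 0.005 from a whole number were taken as shared with other loci.

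Rounded counts were scaled in edgeR 4.0.16 (R 4.3.3) by TMM, with factors 0.975 and 1.03, and log2 ratios used a prior count of 2. Genes that reached 1 CPM in either library (13243) count as tested, and a call means 2-fold or more by size alone. A gene below 1 CPM in 1 library was thus tested only through the library where it was higher. No residual degrees of freedom were left, so no p-value was computed. Intervals are exact conditional (Clopper-Pearson) 95% intervals without the prior count. Shares of a pair carry such intervals to the TPM scale with lengths taken as exact, and a ratio of ratios has an exact conditional interval from scipy 1.17.1. Since reads copied by PCR carried no molecular identifiers, they are not independent molecules and all intervals cover counting error only. The scaling was tested on simulated data.

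The 10 genes, the 8 lists and the tests were chosen with earlier results of these data known. Named are the 10 genes, Smad9, in each list up to 3 tested genes with the largest absolute ratio at 2-fold or more, and the 3 listed genes nearest to the member with the largest ratio. The values of 2 list genes that this rule names are not reported here. Others are marked as named after their values were seen. Coordinates, neighbours and promoters are RefSeq's of GRCm38.p6, the build the notes name, joined by Entrez identifier, with promoters credited to RefSeq. Protein sequences were not used here. In GENCODE vM21, which is on the same build, none of the 10 genes shares exonic bases with a gene in the table. Settings tried in turn were DESeq2 1.42.0 size factors, library totals, no filter or one at 5 CPM, a prior count of 0.5 or 5, TPM or FPKM with a pseudocount of 1, and ratios centred on the median of each of 10 bins of length implied by counts and FPKM.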

Additional observations from a re-analysis of the deposited data

How the results depend on the processing

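Each of the 10 genes' ratios kept its side of 2-fold under all 9 other settings except Smad6. With TPM or FPKM and a pseudocount of 1 the number of the 10 genes at least 2-fold higher was therefore 1, not 2. Of 90 single ratios, 80 stayed within their counting interval, and none that was called changed sign. Dropping the filter or setting it at 5 CPM leaves a single ratio unchanged by construction, so those values are no check of it. Of 144 list counts, 119 stayed within 1.5 times their value. The number of all tested genes at least 2-fold higher was 2712 without a filter, 970 with a filter at 5 CPM, 1091 with TPM and 945 with FPKM, against 1796. The number lower was 680 with FPKM, against 1225, and over the pathway lists 13 with FPKM, against 22. Summed class levels as log2 ratios moved with FPKM to -0.39 from -0.51 (Smad2 and Smad3), -0.29 from -0.41 (Smad1, Smad5 and Smad9), -0.11 from -0.23 (Smad4), 0.20 from 0.09 (Smad6 and Smad7), 0.73 from 0.61 (Ski and Skil) and 0.32 from 0.20 (Foxh1). Foxh1 stood at 0.31 with TMM-scaled counts per length. No paired analysis was possible because each state has 1 library, and no library could be left out. Depth limits Smad6 most, with 88 counts in mESC. A pseudocount of 1 pulls low TPM and FPKM values together by construction.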
